A study of Mus musculus with 6 samples.

Results

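The lysyl oxidase family of the mouse consists of 5 genes, Lox, Loxl1, Loxl2, Loxl3 and Loxl4, which were picked by gene name from an annotation of 54532 genes. All 5 were counted in every library, and all 5 were among the 14624 genes that passed the filter on low counts. RNA-seq had been performed on primary BMSCs of wild-type mice, the plastic-adherent stromal fraction of bone marrow from which osteoblasts can be grown, after 7 days in osteogenic medium. In both groups this medium contained ascorbic acid at 50 μg/mL, β-glycerophosphate at 10 mM and, according to the labels, dexamethasone at 100 nM, whereas the methods text names a lower dexamethasone concentration. The Ni group additionally received 0.1 μM nickel ion, and the control group did not. Each group had 3 libraries, which the labels call independent biological replicates. The strain, age and sex of the donor mice, and whether animals were pooled, are not given in the sources used here.

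Lysyl oxidases are secreted, copper-dependent amine oxidases. They oxidise lysine and hydroxylysine side chains of collagens and elastin to aldehydes, which then condense into the covalent cross-links that make the matrix of bone, tendon and vessel walls stiff and insoluble. Lox and Loxl1 are made as pro-enzymes with a propeptide, whereas Loxl2, Loxl3 and Loxl4 carry scavenger receptor cysteine-rich domains ahead of the same catalytic part. In bone, collagen cross-linking by this family precedes and accompanies mineral deposition.

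What the family shares is the catalytic part with its copper site, a short stretch in which histidines hold the copper ion. The 27 coding bases of this stretch were read from the GENCODE M21 transcripts (GRCm38) and are shown because they define the family. Capitals mark the 4 histidine codons, and each sequence runs 5′ to 3′ on the coding strand.
Loxl1: tggCATagctgtCACcaaCATtacCAC
Loxl2: tggCACgactgcCACaggCACtacCAC
Loxl3: tggCATgagtgtCATgggCATtacCAC
Loxl4: tggCACcagtgcCACaggCACtacCAC

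The stretch is interrupted by an intron at the same codon position in all 5 genes, with 17 bases in one exon and 10 in the next. In Loxl1, on the minus strand, these are chr9:58294359-58294375 in exon 3 and chr9:58293720-58293729 in exon 4. In Loxl2, on the plus strand, they are chr14:69682322-69682338 in exon 10 and chr14:69689028-69689037 in exon 11. In Loxl3, on the plus strand, they are chr6:83050001-83050017 in exon 10 and chr6:83050116-83050125 in exon 11. In Loxl4, on the minus strand, they are chr19:42599877-42599893 in exon 11 and chr19:42598807-42598816 in exon 12. Lox and Loxl1 were identical at 26 of the 27 bases and Loxl2 and Loxl4 at 25, while the other pairs shared between 18 and 21. Over the catalytic part, the encoded residues of Lox and Loxl1 were 76.1% identical, and those of the pairs among Loxl2, Loxl3 and Loxl4 were 66.5% to 70.1% identical. Pairs across these subgroups were 51.1% to 57.3% identical.

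Despite this likeness, no stretch of 50 bases occurred in the transcripts of more than 1 member, so reads of that length could be assigned to single members. Outside the family, Lox, Loxl1 and Loxl4 shared no 50-base stretch with any other gene. Loxl2 shared 45.0% of its stretches with other genes, 2299 of 2411 of these with Gm21451, an unprocessed pseudogene on the same strand of chromosome 14. Gm21451 received between 0 and 7 counts per library. How reads that match both loci were treated is not given in the sources used here, so the level of Loxl2 is uncertain. Loxl3 overlaps the opposite-strand protease gene Htra2 over 535 of its 4603 exon bases (11.6%), and it is not stated whether strand was used in counting. Htra2 was counted 795, 822 and 651 times in the controls and 628, 793 and 582 times in the Ni libraries.

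The libraries held 16101033 to 18642504 counts. The labelled cell type was checked against marker lists, each summed per library as CPM, which are counts relative to the library size after TMM scaling. The 10 stromal markers summed to 7490 to 10220 CPM in controls and 11570 to 13680 CPM in Ni libraries, and none was at 0, although Thy1, which marks many stromal cells, was at a mean of 0.402 FPKM in controls. The 10 osteoblast markers summed to 5317 to 11940 CPM in controls and 11230 to 16350 CPM in Ni libraries. Macrophage markers were abundant, with 24660 to 29800 CPM in controls and 25040 to 25790 CPM in Ni libraries over 10 genes. Osteoclast markers (6 genes) summed to 554.1 to 1257 CPM in controls and 569.1 to 621.6 CPM in Ni libraries. Of these, 4 were under 1 CPM and most of the sum was Acp5, at a mean of 873 CPM in controls and 468 CPM in Ni libraries. Ctsk went the other way, from 88.7 to 136 CPM. Adipocyte markers (6) summed to 554.4 to 882.4 and 471.5 to 633.8, mostly from Lpl, at a mean of 661 CPM in controls. Smooth muscle and pericyte markers (5) summed to 691.3 to 1415 and 1222 to 1327, mostly from Acta2, at 902 CPM in controls. These sums thus follow single genes more than cell types. Chondrocyte markers (6, with Col9a1 at 0) summed to 143.2 to 239.6 CPM and 271.7 to 322.8 CPM, endothelial markers (5) to 43.73 to 72.24 and 41.10 to 46.05, and neutrophil markers (5, with S100a9 and Ltf at 0) to 0.601 to 1.80 and 0.923 to 1.09. Over all tested genes control replicate 3 lay closer to each Ni library, at distances (1 minus Pearson's r of log2 CPM) of 0.0119 to 0.0140, than to control replicates 1 and 2, at 0.0209 and 0.0232. The members' results, and the counts of the pathway lists, are also given without that library. It was singled out because it lay near the Ni libraries, so leaving it out widens the contrast between the groups. Results without it are therefore no independent evidence of a change.

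The family's transcripts were dominated by Lox. Per length, as FPKM (fragments relative to gene length and library size, as deposited), Lox made up 85.3% to 88.5% of the family's summed level in the 6 libraries. Its level was 13.9 to 19.9 times that of the next member. It ranked from 12th to 21st of all genes by counts and took 0.276% to 0.532% of a library. Lox (ENSMUSG00000024529), the founding member and the main collagen cross-linking enzyme of bone, lies on the minus strand of chromosome 18 from 52516069 to 52529867 (GRCm38).

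Loxl3, Loxl1 and Loxl2 formed a middle tier. In controls Loxl3 was at 43.5 ± 16.6 FPKM, Loxl1 at 36.0 ± 4.02 FPKM and Loxl2 at 31.9 ± 11.4 FPKM (SD, n = 3 each). In Ni libraries Loxl3 was at 59.3 ± 4.03 FPKM, Loxl2 at 44.6 ± 4.71 FPKM and Loxl1 at 40.5 ± 5.80 FPKM (SD, n = 3 each). The order within this tier changed between libraries: Loxl1 was the highest of these 3 genes in control replicate 1, and Loxl3 was in the other 5 libraries. The controls' levels of the 3 genes overlapped, as did those of Loxl1 and Loxl2 in Ni libraries, whereas Loxl3 exceeded both of the others in every Ni library. Loxl4 was the lowest member throughout, at 1.29 ± 0.606 FPKM in controls and 2.54 ± 0.680 FPKM in Ni libraries (SD, n = 3 each), or 0.123% to 0.247% of the family's summed level.

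**Figure D1:**
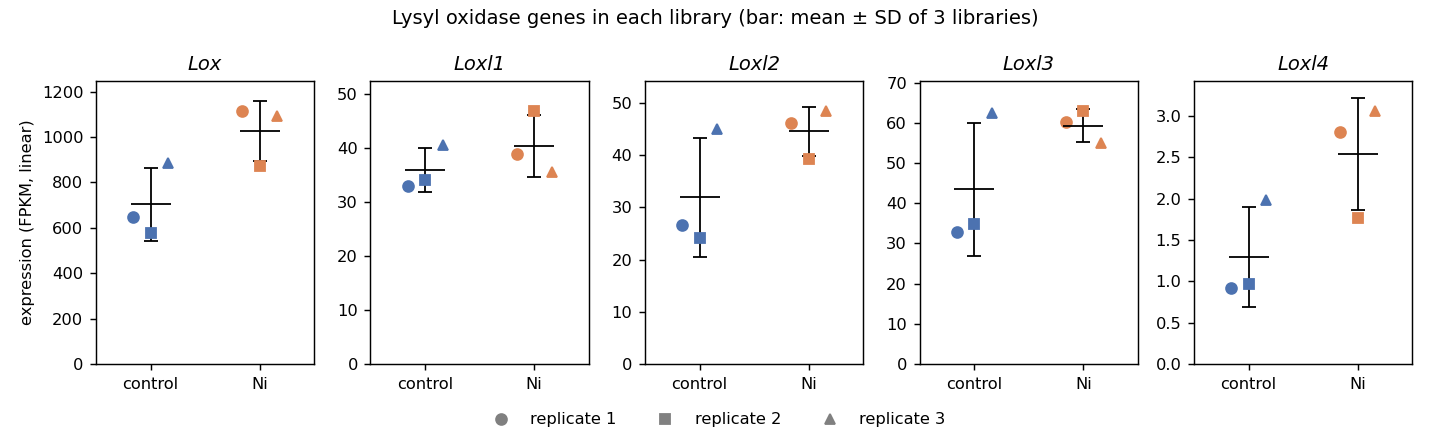
Expression of the 5 lysyl oxidase genes in FPKM on linear axes that start at 0, with a separate scale for each gene; symbols are single libraries (replicates 1 to 3), and horizontal bars with whiskers are the mean ± SD of 3 libraries. In every panel control replicate 3 lies above the other controls and within or near the range of the Ni libraries, so the groups overlap for all 5 genes.

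To ask whether low-dose Ni changed the family, control and Ni libraries were compared gene by gene. The log2 fold change was positive for all 5 members, from 0.17 for Loxl1 to 0.98 for Loxl4 (median 0.48), where 48.1% of all tested genes were positive and the median of all was -0.01. The members were chosen with earlier results of these data known, so their shared sign is no independent evidence of a direction. None of the 5 passed an adjusted p of 0.05 in edgeR's quasi-likelihood test, as was the case for all genes (0% called). At an unadjusted p under 0.05 there were 2 of 5, Lox and Loxl4, against 13.4% of all tested genes (7.59% higher and 5.83% lower). DESeq2 likewise called 0 of 5 at an adjusted p of 0.05, against 1.79% of the genes to which it gave one. At an unadjusted p under 0.05 it had 4 of 5, all but Loxl1 and all higher, against 4.49% higher and 3.32% lower of 25876 genes. With no filter on low counts edgeR called the same 4 members at an adjusted p of 0.05, where 2.55% of those 25876 genes were called higher and 1.42% lower. Their log2 fold changes in that fit were nearly the same as with the filter, and their standard errors were smaller. For none of the 5 did the 3 Ni libraries lie entirely above the 3 controls, which they did for 7.97% of all tested genes, or entirely below, as for 6.71%.

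Lox was counted 57386, 44442 and 71703 times in control replicates 1 to 3 and 98926, 73719 and 95728 times in Ni replicates 1 to 3. As FPKM these were 648, 578 and 886 in controls and 1113, 873 and 1095 in Ni libraries. Ni replicates 1 and 3 were above all controls, while Ni replicate 2 lay just below control replicate 3. The mean was 704 ± 161 FPKM in controls and 1027 ± 134 FPKM in Ni libraries (SD, n = 3 each). This corresponds to a log2 fold change of 0.54 (standard error of the fit, SE, 0.18), or 1.46-fold, with an unadjusted p of 0.0137 and an adjusted p of 0.309 in edgeR's quasi-likelihood test. The exact permutation test on log2 CPM (two-sided, n = 3 against 3) gave p = 0.2, where the smallest p this design allows is 0.1. Without control replicate 3 the log2 fold change was 0.75 with an adjusted p of 0.00103 in edgeR. Leaving out any other library gave 0.42 to 0.65, with an adjusted p of 0.227 to 0.83 in edgeR.

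Loxl1 (ENSMUSG00000032334, chromosome 9 from 58287738 to 58313186), the closest relative of Lox and known for its part in elastic fibre upkeep, had the flattest profile. It was at 33.1, 34.2 and 40.6 FPKM in control replicates 1 to 3 and at 39.0, 46.9 and 35.6 FPKM in Ni replicates 1 to 3. The groups overlapped, and Ni replicate 2, the lowest Ni library for Lox, was the highest here. The log2 fold change was 0.17 (SE 0.13, adjusted p = 0.596 in edgeR), and the exact two-sided permutation test gave p = 0.4. It depended on single libraries, with 0.27 without control replicate 3 (adjusted p = 0.154 in edgeR) and 0.05 without Ni replicate 2.

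Loxl2 (ENSMUSG00000034205, chromosome 14 from 69609068 to 69695834), which cross-links type IV collagen of basement membranes, resembled Lox in its pattern. Its level was 26.7, 24.1 and 45.0 FPKM in control replicates 1 to 3 and 46.1, 39.3 and 48.4 FPKM in Ni replicates 1 to 3. Control replicate 3 was 1.78 times the mean of the other controls on the CPM scale and lay among the Ni libraries. The log2 fold change was 0.48 (SE 0.23, adjusted p = 0.399 in edgeR), with p = 0.2 in the exact two-sided permutation test. It was 0.82 without control replicate 3 (adjusted p = 0.000335 in edgeR) and 0.31 without control replicate 2.

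Loxl3 (ENSMUSG00000000693, chromosome 6 from 83034173 to 83052562), required for palate and cartilage development in mice, was at 32.9, 34.9 and 62.5 FPKM in control replicates 1 to 3. In Ni replicates 1 to 3 it was at 60.2, 62.9 and 54.9 FPKM. Control replicate 3 exceeded Ni replicates 1 and 3, and the other controls lay well below every Ni library. The log2 fold change was 0.45 (SE 0.23, adjusted p = 0.435 in edgeR), with p = 0.3 in the exact two-sided permutation test. It was 0.81 without control replicate 3 (adjusted p = 0.000225 in edgeR) and 0.28 without control replicate 1. The Htra2 counts given above overlapped between the groups, and their part in the Loxl3 value was not tested.

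Loxl4 (ENSMUSG00000025185, chromosome 19 from 42593982 to 42612813), of the subgroup with scavenger receptor domains, had the largest fold change of the 5 and the fewest reads. It was counted 71, 65 and 141 times in control replicates 1 to 3 and 218, 131 and 234 times in Ni replicates 1 to 3, or at 0.915, 0.965 and 1.99 FPKM and 2.80, 1.77 and 3.06 FPKM. As for Lox and Loxl2, Ni replicates 1 and 3 were above all controls and Ni replicate 2 was below control replicate 3. The log2 fold change was 0.98 (SE 0.33), or 1.97-fold, with an unadjusted p of 0.0152 and an adjusted p of 0.311 in edgeR's quasi-likelihood test. The exact two-sided permutation test (n = 3 against 3) gave p = 0.2. Without control replicate 3 the log2 fold change was 1.44 with an adjusted p of 0.00222 in edgeR. Leaving out any other library gave 0.78 to 1.18, with an adjusted p of 0.221 to 0.83 in edgeR. Fitted with limma to log2(FPKM + 1), where the added 1 shrinks the change of a weakly expressed gene, the log2 fold change was 0.64.

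**Figure D2:**
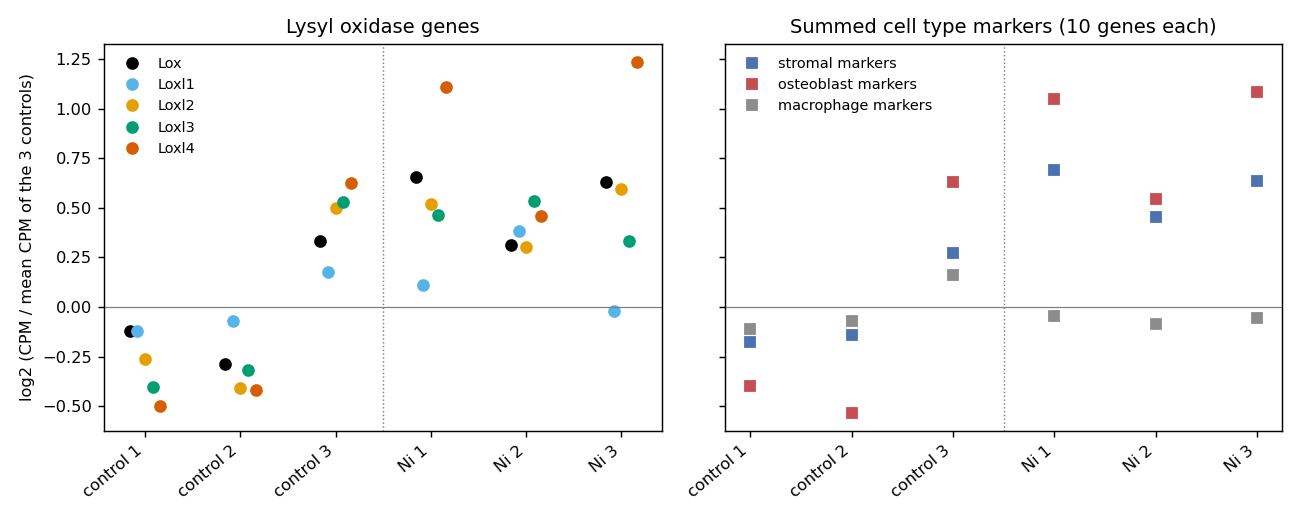
Log2 of the CPM in each library over the mean CPM of the 3 controls, for the 5 lysyl oxidase genes (left) and for the summed CPM of 10 stromal, 10 osteoblast and 10 macrophage markers (right); each point is 1 library and the dotted line separates the groups. For Lox, Loxl2, Loxl3 and Loxl4, control replicate 3 lies between 0.33 and 0.63, near Ni replicate 2, whose values lie between 0.30 and 0.54. The osteoblast marker sum is at 0.63 and 0.54 in the same libraries. Spp1 makes up 60.4% to 80.3% of that sum, and without Spp1 it is at 0.78 and 0.92.

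The members were set beside the summed markers of osteoblasts, stromal cells and macrophages in each library. Relative to the control mean, on a log2 scale of CPM, the summed osteoblast markers were at -0.40, -0.54 and 0.63 in control replicates 1 to 3 and at 1.05, 0.54 and 1.09 in Ni replicates 1 to 3. Loxl4 came nearest to this, at -0.50, -0.42 and 0.63 in the controls and 1.11, 0.46 and 1.24 in the Ni libraries. Spp1 made up 60.4% to 80.3% of the summed osteoblast markers. Lox was at -0.12, -0.29 and 0.33 in the controls and 0.65, 0.32 and 0.63 in the Ni libraries, close to the stromal sum at -0.18, -0.14 and 0.27 and then 0.69, 0.45 and 0.64. That sum, however, was carried by Col1a2 and Col3a1, which are also substrates of the enzymes and made up 63.6% to 84.4% of it. The other 8 stromal markers together were at 0.11, 0.01 and -0.12 in the controls and at -0.21, -0.24 and -0.30 in the Ni libraries. Most of that sum was 1 gene, Cxcl12, a chemokine of marrow stroma. It had a mean of 2071 CPM in controls, and the next of the 8, Prrx1, had 145 CPM. At an unadjusted p under 0.05 in edgeR, 5 of the 10 stromal markers were higher and 1 was lower, with a median log2 fold change of 0.29. The lower one was Cxcl12, at -0.47 (SE 0.14). Pdgfra was at 0.07 (SE 0.09), Lepr at -0.13 (SE 0.15) and Thy1 at -0.07 (SE 0.37). Lum, at 0.95 (SE 0.29), Dcn, at 0.80 (SE 0.24), Prrx1, at 0.36 (SE 0.16), and Pdgfrb, at 0.21 (SE 0.11), had the same sign as Lox. All 10 osteoblast markers were higher at an unadjusted p under 0.05, with a median of 1.27, and 8 were without control replicate 2. Without Spp1, the most abundant, their sum was at -0.57, -0.70 and 0.78 in the controls and 1.80, 0.92 and 1.92 in the Ni libraries. The macrophage sum stayed between -0.11 and 0.16 in all libraries, and without Lyz2, which made up 38.0% to 50.7% of it, between -0.20 and 0.08. By the same measure 0 of the 10 macrophage markers were higher and 2 were lower, Tyrobp at -0.45 (SE 0.18) and Ptprc at -0.36 (SE 0.14), with a median of -0.15. In bulk RNA, more cells of a type and more RNA per cell cannot be told apart, and the part of cell composition in the members' values was not tested.

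The proportions within the family were also compared. The share of Lox in the family's summed FPKM was 86.3% ± 0.965 in controls and 87.3% ± 1.81 in Ni libraries (SD, n = 3 each). The libraries of the groups overlapped, and the difference was smaller than the SD of the Ni libraries and slightly larger than that of the controls. The share of Loxl1 was 4.49% ± 0.588 and 3.52% ± 0.928, and that of Loxl4 0.153% ± 0.0352 and 0.214% ± 0.0377, with overlapping libraries in each case. The log2 ratio of Lox to Loxl2 was the steadiest of the 10 ratios between members, ranging over 0.303 across the 6 libraries, with means of 4.50 in controls and 4.52 in Ni libraries. The log2 ratio of Loxl1 to Loxl4 varied most, over 1.64, with means of 4.89 ± 0.469 and 4.02 ± 0.624 (SD, n = 3 each). The groups did not overlap for 1 of the 10 ratios, that of Loxl2 to Loxl4, which was 4.50 to 4.87 in controls and 3.99 to 4.47 in Ni libraries. The nearest libraries were control replicate 3, at 4.501, and Ni replicate 2, at 4.472. Over all tested genes the Ni libraries lay entirely above the controls for 7.97% and entirely below for 6.71%. The 10 ratios rest on only 5 genes, and the level of Loxl2 is uncertain, so this count is no evidence of a shift.

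**Figure D3:**
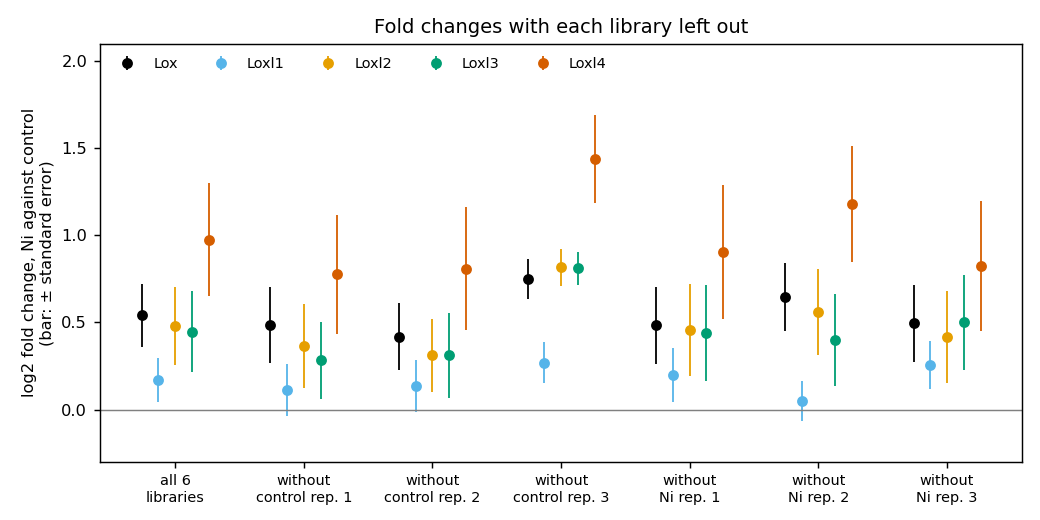
Log2 fold change of each lysyl oxidase gene, Ni against control, from edgeR fits on all 6 libraries and with each library left out in turn; bars are ± 1 standard error. All values are positive, and those of Lox, Loxl2, Loxl3 and Loxl4 are highest without control replicate 3, at 0.75, 0.82, 0.81 and 1.44.

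The genes most alike to each member were sought among 9248 protein-coding genes with a mean of at least 10 CPM, by the root mean square difference between log2 CPM profiles over the 6 libraries, each centred on its own mean. For Lox these were Grb10, an adaptor that dampens insulin and IGF receptor signalling (0.0214), Cxxc5, a zinc finger regulator (0.0222), and Tnfrsf11b, which encodes the RANKL decoy receptor osteoprotegerin (0.0319). The median gene differed from Lox by 0.378. For Loxl1 they were Sesn2, Dlg5 and Fcgrt (0.0382 to 0.0452), and for Loxl2 Il13ra1, Pls3 and Lhfpl2 (0.0293 to 0.0465). For Loxl3 they were Ier3, Ptges, a prostaglandin E synthase, and Ccnd1, which encodes cyclin D1 (0.0347 to 0.0419). For Loxl4 they were Ly6c1, Fmod and Cpe (0.0977 to 0.111), of which Fmod encodes fibromodulin, a collagen-binding proteoglycan that also binds Lox. Within the family Lox and Loxl2 were nearest, at 0.106, with 1.30% of the genes nearer to Lox than Loxl2 was. Loxl1 and Loxl4 were the least alike, at 0.616. Each of these profiles holds 6 points, and all genes share the same libraries.

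The wider cross-linking pathway was described from 6 lists with 56 genes, of which 51 were tested. No gene in them passed an adjusted p of 0.05 in edgeR, and at an unadjusted p under 0.05 26 were higher in Ni libraries and 2 were lower, where the shares over all tested genes were 7.59% and 5.83%. The lists were written with earlier results of these data known, so their counts are no independent evidence of a direction.

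Among the substrates, 12 of 13 genes were tested, the log2 fold changes of all 12 were positive (median 0.61), and 8 were higher at an unadjusted p under 0.05. Col1a2 and Col1a1, the chains of type I collagen, were at 342 ± 97.2 and 911 ± 329 FPKM in controls and 673 ± 92.8 and 1997 ± 226 FPKM in Ni libraries (SD, n = 3 each). Their log2 fold changes were 0.97 (SE 0.21) and 1.13 (SE 0.24), with adjusted p of 0.210 and 0.212 in edgeR. Col5a2, a chain of the type V collagen that sets fibril diameter, had a log2 fold change of 0.90 (SE 0.22, adjusted p = 0.249 in edgeR). Col11a2 had the largest of the list, at 1.94 (SE 0.39), from a low level of 0.822 ± 0.230 FPKM in controls (SD, n = 3), and Col5a3 the smallest, at 0.20 (SE 0.23). Eln, which encodes the elastic fibre substrate elastin, was the gene not tested, at a mean of 0.0701 FPKM in controls and 0.0614 FPKM in Ni libraries.

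Proteins that process or bind the enzymes gave 9 of 11 tested genes higher at an unadjusted p under 0.05, with a median log2 fold change of 0.55. Bmp1, the protease that frees active Lox from its propeptide, was at 18.4, 18.2 and 28.7 FPKM in control replicates 1 to 3 and at 34.0, 29.2 and 32.4 FPKM in Ni replicates 1 to 3. Its groups did not overlap, and its log2 fold change of 0.55 (SE 0.17, adjusted p = 0.306 in edgeR) was close to that of Lox. Fn1, the fibronectin on which Lox is activated, had a log2 fold change of 0.68 (SE 0.19), and Efemp2, which encodes fibulin-4, a Lox-binding protein, of 0.54 (SE 0.14). Pcolce, an enhancer of procollagen processing by Bmp1, was at 0.46 (SE 0.12). Tll1, a relative of Bmp1, had the lowest, at -0.03 (SE 0.51) on a level of 0.149 ± 0.0827 FPKM in controls (SD, n = 3).

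The list of copper supply genes, which includes chaperones of enzymes other than lysyl oxidases, did not share this direction. Of the 10 in the list 8 were tested, 6 of these had negative log2 fold changes (median over the 8, -0.25), and 2 were lower at an unadjusted p under 0.05. Slc31a2, a copper transporter of endosomes and lysosomes, was at 58.0 ± 11.7 FPKM in controls and 44.3 ± 2.30 FPKM in Ni libraries (SD, n = 3 each), with a log2 fold change of -0.39 (SE 0.14, adjusted p = 0.323 in edgeR). Sco1, a copper chaperone of cytochrome c oxidase, was at -0.40 (SE 0.15, adjusted p = 0.340 in edgeR), with all 3 Ni libraries below the 3 controls. Atp7a, the pump that loads copper onto lysyl oxidases in the secretory pathway, was at 6.67 ± 0.753 FPKM in controls and 6.17 ± 0.399 FPKM in Ni libraries (SD, n = 3 each), with a log2 fold change of -0.12 (SE 0.11). Atox1, which hands copper to Atp7a, was at 117, 177 and 156 FPKM in control replicates 1 to 3 and at 101, 148 and 96.5 FPKM in Ni replicates 1 to 3, with a log2 fold change of -0.38 (SE 0.20). Slc31a1, the main copper importer of the plasma membrane, was at 0.08 (SE 0.12), Ccs, the chaperone of superoxide dismutase, at -0.26 (SE 0.14), Cox17 at -0.23 (SE 0.27) and Commd1 at 0.02 (SE 0.19).

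**Figure D4:**
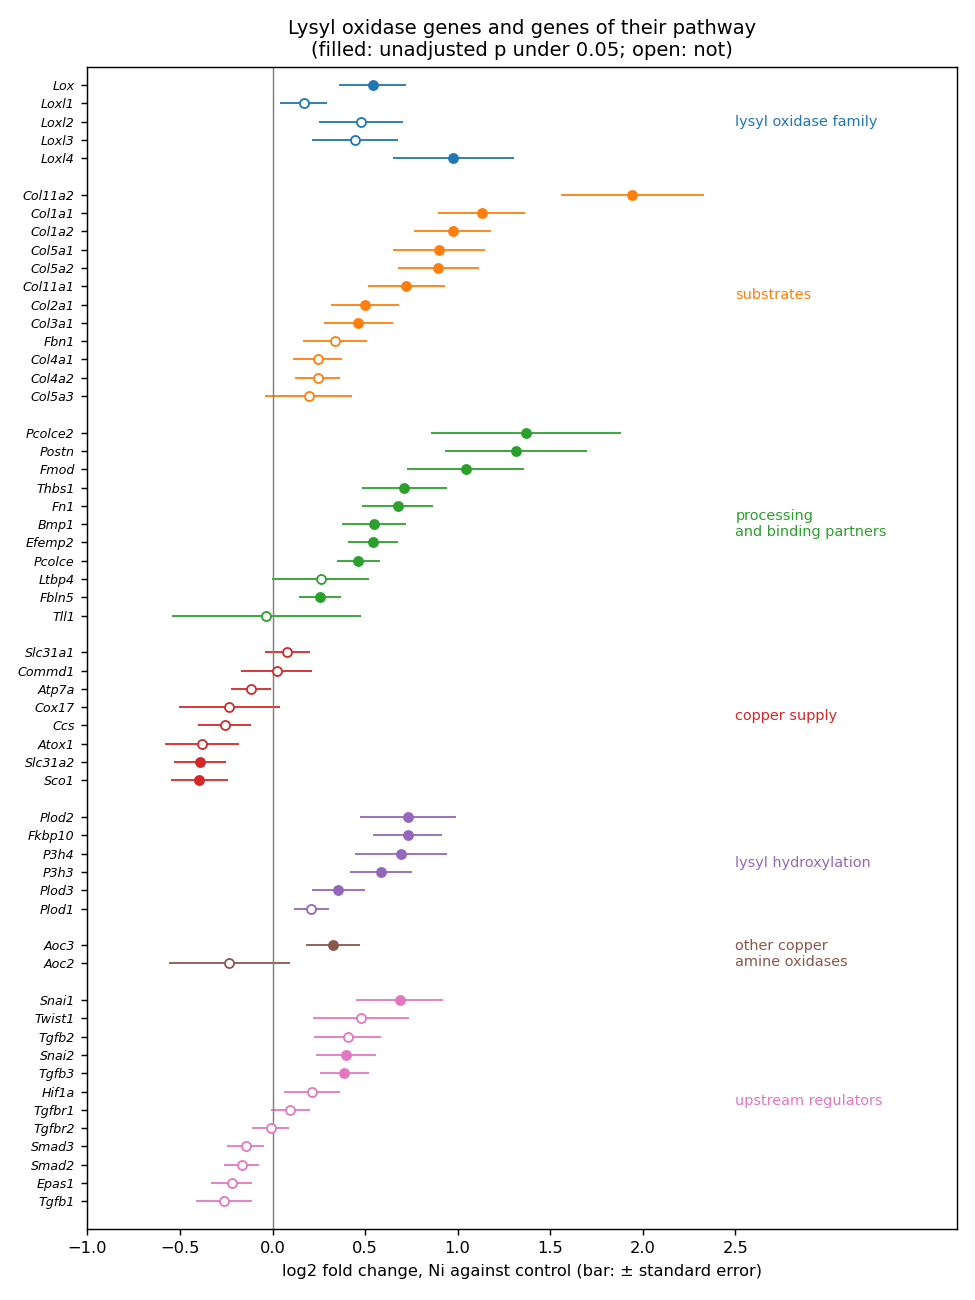
Log2 fold changes, Ni against control, of the 5 lysyl oxidase genes and of 51 tested genes in 6 lists of their pathway, from edgeR; bars are ± 1 standard error, and filled points have an unadjusted p under 0.05. Substrates, processing partners and lysyl hydroxylation genes lie mostly to the right of 0, with medians of 0.61, 0.55 and 0.64, while the copper supply genes have a median of -0.25.

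Lysyl hydroxylation, which sets the kind of cross-link that the oxidases form, gave 5 of 6 genes higher at an unadjusted p under 0.05, with a median log2 fold change of 0.64. Plod2, the hydroxylase of collagen telopeptides, was at 23.3, 20.2 and 38.5 FPKM in control replicates 1 to 3 and at 49.9, 34.2 and 52.5 FPKM in Ni replicates 1 to 3. The groups overlapped through control replicate 3 and Ni replicate 2, as for Lox, Loxl2 and Loxl4, and the log2 fold change was 0.73 (SE 0.26, adjusted p = 0.334 in edgeR). Fkbp10, a chaperone needed for telopeptide hydroxylation, was at 0.73 (SE 0.19), P3h3 at 0.59 (SE 0.17) and P3h4 at 0.69 (SE 0.25). Plod1, which hydroxylates lysines of the collagen helix, had the lowest of the list, at 0.21 (SE 0.09).

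Of the other copper amine oxidases, Aoc3, a cell-surface enzyme, had a log2 fold change of 0.33 (SE 0.15, unadjusted p = 0.0499, adjusted p = 0.372 in edgeR), Aoc2 of -0.23 (SE 0.33), and Aoc1 was too low to be tested. Without control replicate 3 Aoc3 was at 0.52 (adjusted p = 0.00486 in edgeR). Among 12 upstream regulators, 3 had an unadjusted p under 0.05, each of them higher, and the median log2 fold change was 0.16. These were Tgfb3, at 0.39 (SE 0.13), and the transcription factors Snai1, which Loxl2 and Loxl3 can bind, at 0.69 (SE 0.24), and Snai2, at 0.40 (SE 0.16). Tgfb2 was at 0.41 (SE 0.18) and Tgfb1, a known inducer of Lox, at -0.26 (SE 0.15), the lowest of the list. Without control replicate 3 these 5 genes passed an adjusted p of 0.05 in edgeR, with Snai1 at 1.03 (adjusted p = 0.000509), Tgfb2 at 0.68 (0.00126), Tgfb3 at 0.55 (0.00379), Snai2 at 0.52 (0.0451) and Tgfb1 at -0.39 (0.0446).

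Without control replicate 3, 4 of the 5 members, all but Loxl1, passed an adjusted p of 0.05 in edgeR, all higher, where 8.69% of 15044 tested genes were called higher and 6.49% lower. All 5 were higher at an unadjusted p under 0.05 in that fit, as were 15.2% of all tested genes, while 12.2% were lower. In the same fit 11 of 13 substrates, 8 of 11 processing and binding partners and 5 of 6 lysyl hydroxylation genes were called higher, as were 1 of 2 other copper amine oxidases and 5 of 12 upstream regulators. Called lower were 1 copper supply gene and 1 upstream regulator. Without Ni replicate 2, 0 of the 5 members passed an adjusted p of 0.05, where 0.08% of 15004 tested genes were called higher and 0.00666% lower. In that fit 2 of 5, both higher, had an unadjusted p under 0.05, against 8.32% higher and 7.98% lower over all tested genes. Leaving out any of the other 4 libraries lowered the count of members. At an unadjusted p under 0.05, 0 members were left without control replicate 1 (4.07% of all tested genes were higher), 1 without control replicate 2 (4%), 1 without Ni replicate 1 (4.24%) and 0 without Ni replicate 3 (4.64%), and the unadjusted p of Lox in these 4 fits of edgeR was 0.0552, 0.055, 0.0565 and 0.0518.

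The list counts also depended on single libraries, as did the share of all tested genes that were higher at an unadjusted p under 0.05 in edgeR. That share was 7.59% with all libraries, 4% without control replicate 2 and 15.2% without control replicate 3. Lysyl hydroxylation genes that were higher at an unadjusted p under 0.05 in edgeR fell from 5 to 2 of 6 without control replicate 2, and to 3 without control replicate 1, Ni replicate 1 or Ni replicate 3. The upstream regulators went from 3 to 0 without control replicate 1 and to 1 without control replicate 2, Ni replicate 1 or Ni replicate 3, and Aoc3 was at an unadjusted p under 0.05 in 1 of the 6 fits, that without control replicate 3. The substrates had 6 to 12 of 13, with 12 only without control replicate 3, and the processing and binding partners 7 to 9 of 11. The median of the substrates was 0.34 without control replicate 1, where Eln was tested as well. Over the 12 substrates tested with all libraries it was 0.46 in that fit, against 0.61. The copper supply genes had 0 to 3 of 8 lower, and 1 higher without control replicate 3, with medians from -0.27 to -0.21. The count of 3 was without Ni replicate 2, where 7.98% of all tested genes were lower.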

How the data were processed

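Raw counts per gene and FPKM were deposited by the authors for 6 libraries, 3 control and 3 Ni. The counts are whole numbers without normalization, and the FPKM values were scaled by the authors to gene length and library. Gene positions and exon lengths were taken from the annotation as deposited, on GRCm38 per the labels. The aligner, the counting tool and the strand setting are not given in the sources used here. No duplicate libraries were found within a group (chi-square per degree of freedom 4.56 to 47.8).

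Counts were filtered by filterByExpr, scaled by TMM and tested with the quasi-likelihood test (robust) of edgeR 4.0.16 (R 4.3.3), and p-values were adjusted by Benjamini and Hochberg over 14624 genes. The standard error is the unshrunk coefficient over the root of the F statistic. DESeq2 1.42.0 and limma 3.58.1 on log2(FPKM + 1) or log2(FPKM + 0.1) were alternatives. The edgeR and DESeq2 steps were tested on simulated data. Exact permutation tests used log2 CPM with a prior count of 2. Of each pathway list the 4 genes with the smallest unadjusted p and the lowest fold change are named, and all copper supply genes. The catalytic part was taken from 50 residues before the copper site to the end. The members and lists were chosen with earlier results of these data known.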

Additional observations from a re-analysis of the deposited data

How the results depend on the processing

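The fold changes of the 5 members kept their sign under all 17 alternatives, 1 of which, DESeq2 restricted to edgeR's tested genes, was chosen after seeing the data. Other scalings, the filter of at least 10 counts in every library, limma and both DESeq2 fits left every member on its side of the threshold; the adjusted p of Lox in DESeq2 was 0.0567. With no filter on low counts in edgeR, Lox was at 0.55 (adjusted p = 0.0015), Loxl2 at 0.49 (0.00628), Loxl3 at 0.46 (0.0282) and Loxl4 at 0.99 (0.000326), where 1027 of 25876 genes were called. Their standard errors were 0.13, 0.13, 0.13 and 0.21 in that fit, against 0.18, 0.23, 0.23 and 0.33 with the filter. Leaving out single libraries gave log2 fold changes from 0.42 to 0.75 for Lox, 0.05 to 0.27 for Loxl1, 0.31 to 0.82 for Loxl2, 0.28 to 0.81 for Loxl3 and 0.78 to 1.44 for Loxl4. The adjusted p over all alternatives ranged from 0.00103 to 0.83 for Lox, 0.154 to 0.919 for Loxl1, 0.000335 to 0.848 for Loxl2, 0.000225 to 0.868 for Loxl3 and 0.000326 to 0.83 for Loxl4.

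Over all genes, 0 had an adjusted p under 0.05 in edgeR, where 1963 had an unadjusted one. The first count was 256 with DESeq2, 265 with DESeq2 restricted to edgeR's tested genes and 1027 with no filter, and ranged from 0 to 2283 with a library left out, the highest without control replicate 3. At an unadjusted p it was 3057 with no filter and ranged from 868 to 4125. The cause was not tested. The deviations of libraries that carry the same number correlated at 0.01, 0.26 and 0.14, which was not taken as pairing. Adding a replicate block called 315 genes at an adjusted p under 0.05, among them 1 member, Loxl4, at 1.02 (adjusted p = 0.0491).

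Of the named genes of the lists, 3 changed sign. Tll1 was at 0.0081 on log2(FPKM + 0.1), at 0.0135 with the replicate block, and between -0.4656 and 0.4099 with a library left out. Commd1 was between -0.0966 and 0.1693 and Aoc2 between -0.378 and 0.0662 with a library left out. Loxl4, with 65 to 234 counts per library, had the least depth of the 5.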
